A study of Homo sapiens with 15 samples.

Results

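The genes described here are the STEAP metalloreductases, a family of haem-containing membrane proteins first named in prostate epithelium. The members were chosen by symbol, as the rows of the LNCaP expression table named STEAP1 to STEAP4 with or without a final B, and 5 of the 17272 genes in the table met this rule: STEAP1, STEAP1B, STEAP2, STEAP3 and STEAP4. The label of the family names 4 of them, and STEAP1B, a close paralogue of STEAP1, came in through the rule. The rule itself used symbols and no measured value.

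LNCaP is a line of human prostate cancer cells that respond to androgen. Cells were kept for 2 days in medium with charcoal-stripped serum, which removes steroids, and then received 1 nM of the synthetic androgen R1881, either with DMSO named in the sample label (10 libraries) or with 2 µM enzalutamide, an inhibitor of the androgen receptor (5 libraries). All 15 libraries thus came from R1881-treated cells of a single line collected at 22 h, and no library without R1881 was analysed here. The numbers of libraries are those of the sample labels, since the methods text gives them the other way round. The methods call the libraries biological replicates without saying whether each was a separate culture, so the p-values measure only the spread between these libraries.

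The level of a gene is its deposited CPM, that is its reads relative to a library size which the authors had rescaled. The read counts could be recovered, since all values came out as whole reads (tolerance 0.01 reads). On genes, the R1881 libraries held 15830745 to 24316740 reads and the enzalutamide libraries 21188661 to 25416052. All 7 markers of luminal prostate epithelium had a row, whereas the defining markers TP63 and KRT5 of basal cells, PTPRC of immune cells and PECAM1 of endothelium had none. The luminal markers, several of which are androgen targets, summed to 6719 to 7742 CPM with R1881 and to 3585 to 3708 CPM with R1881 + enzalutamide. For stroma, 2 of 5 markers had a row (COL1A1 and LUM) and summed to 4.61 to 8.55 CPM with R1881 and to 8.89 to 13.9 CPM with enzalutamide, while COL1A2, DCN and PDGFRB had none, and the part of this difference in the results was not tested. KRT14 was the only basal marker with a row (mean 1.02 CPM with R1881, 0.1 CPM with enzalutamide, limma adjusted p = 3.57e-08), SYP the only neuroendocrine marker (1.597 and 1.054 CPM, limma adjusted p = 0.000369) and VWF the only endothelial marker (2.56 and 3.20 CPM, limma adjusted p = 0.00526). These differences, at levels of at most 3.35 CPM in any library, were likewise not tested for their part in the results.

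STEAP2, STEAP3 and STEAP4 are full metalloreductases. Their cytoplasmic domain takes electrons from NADPH and passes them through FAD and a haem in the membrane to ferric iron or cupric copper, the reduced forms of which are taken up by metal transporters. STEAP1 has the membrane part with its haem but lacks the NADPH-binding domain, and it is a cell surface antigen used as a drug target in prostate cancer. STEAP3 is best known as the endosomal ferric reductase of the transferrin cycle, STEAP4 as an androgen-responsive gene that is also linked to inflammation and metabolism in fat tissue, and STEAP2 as a gene with high expression in prostate.

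STEAP1, STEAP2 and STEAP4 lie on the same arm of chromosome 7. In GENCODE v44 on GRCh38, STEAP1 spans chr7:90154456-90164829 on the plus strand, and STEAP2 follows it on the same strand at chr7:90167590-90238137, after a gap of 2760 bases. STEAP4 is on the minus strand at chr7:88270892-88306894, 1.85 Mb from STEAP1. STEAP1B lies elsewhere on chromosome 7, at chr7:22419444-22727613 on the minus strand, and STEAP3 is on chromosome 2, at chr2:119223831-119265652 on the plus strand. The promoter sequences of the gene with the largest change and of the adjacent STEAP1 and STEAP2, which moved in opposite directions, are given below as the 250 bases before the RefSeq start (GRCh38.p14), on the strand of the gene, without any base that GENCODE places in an exon of the same gene. The RefSeq start used for STEAP2 lies within the GENCODE bounds of that gene and not at its GENCODE start beside STEAP1. Its window of 250 bases also overlaps an exon of STEAP2-AS1, an RNA of the opposite strand. Capitals mark a match to GGGCGG (read as CCGCCC on the other strand), a core bound by SP family factors.
STEAP4, chr7:88306895-88307144, minus strand: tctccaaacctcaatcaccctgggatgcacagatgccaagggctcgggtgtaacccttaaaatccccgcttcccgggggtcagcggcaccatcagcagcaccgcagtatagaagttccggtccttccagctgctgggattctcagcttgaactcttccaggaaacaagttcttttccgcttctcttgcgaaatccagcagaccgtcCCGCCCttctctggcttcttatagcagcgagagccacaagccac
STEAP1, chr7:90154219-90154455, plus strand: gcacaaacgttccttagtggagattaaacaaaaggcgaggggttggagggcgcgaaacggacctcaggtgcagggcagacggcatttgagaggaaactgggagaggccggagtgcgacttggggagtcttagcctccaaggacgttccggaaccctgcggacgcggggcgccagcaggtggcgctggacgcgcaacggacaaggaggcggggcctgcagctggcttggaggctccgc
STEAP2, chr7:90211490-90211685, plus strand: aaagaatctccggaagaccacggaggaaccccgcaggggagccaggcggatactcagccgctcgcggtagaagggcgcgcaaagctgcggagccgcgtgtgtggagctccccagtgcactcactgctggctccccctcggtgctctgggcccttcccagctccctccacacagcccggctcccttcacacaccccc

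AGAACA, the hexamer found in the arms of the androgen response element, was searched on both strands, as were CCAAT and GGGCGG, while TATAAA was searched on the strand of the gene. None of the 6 STEAP promoter windows of 250 bases held AGAACA, which 12.4% of all 35116 RefSeq promoter windows of this length held. Windows were searched whole, and all 250 bases of the STEAP1B window lie in exons that GENCODE gives to STEAP1B. GGGCGG was present once in the STEAP4 window, 3 times in that of STEAP3 and once in the STEAP2 window, there beyond the stretch printed, against 42.6% of all windows with at least 1 match. STEAP2 has a second RefSeq start at which the window held TATAAA once and CCAAT 2 times, where 6.8% and 32% of all windows have a match. The letters of a match describe the sequence only, and a window without a match says nothing about more distant sites.

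With enzalutamide the 5 members moved by unequal amounts. STEAP4 fell to a level near the limit of detection, STEAP3, STEAP1 and STEAP1B fell by 16% to 27% of their median CPM, and STEAP2 was slightly higher. The test was limma on log2(CPM + 0.5), run on 17046 genes (mean CPM 0.5 or more) with p-values adjusted by Benjamini-Hochberg over all of them and a threshold of 0.05, so that fold changes of genes with few reads are understated. All 5 members passed the test, as did 62.5% of all genes tested, and being called is therefore common in these data. Of the members, 4 were lower with enzalutamide, as were 32.7% of all genes, and 1 was higher, as were 29.8%. In bulk RNA, a lower level in each cell and fewer cells that express a gene cannot be told apart.

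STEAP4, the androgen-responsive metalloreductase, had the lowest log2 fold change of all 17046 genes. With R1881 its CPM ranged from 61.0 to 72.0 with a median of 67.5, and the mean was 66.2 ± 4.29 (SD, n = 10). With R1881 + enzalutamide the 5 libraries held 0.186, 0.140, 0.0910, 0.180 and 0.0784 CPM, from replicate 1 to 5 in order, with a mean of 0.135 ± 0.0494 (SD, n = 5). The groups were thus far apart, and no enzalutamide library held more than a trace of the transcript.

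These traces rested on 2 to 4 reads per library, 15 reads in all, against 13382 reads in the R1881 libraries. Set against the library sizes, the summed reads were 497 times as many with R1881, with an exact 95% interval of 301 to 889 that covers counting error only. The fitted log2 fold change was -6.72 (SE 0.0608, limma adjusted p = 1.66e-25), and it depends on the pseudocount, reaching -8.16 with 0.1 and -5.89 with 1. The next lowest genes were TUBA3D (-6.40), CHRNA2 (-6.20) and CCDC141 (-5.92), and 22 of all genes lay under -4. On the recovered reads STEAP4 ranked 3rd lowest with edgeR and 2nd lowest with DESeq2.

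STEAP3, the endosomal ferric reductase, was the least abundant member with R1881 and fell by 26.6% of its median. Its CPM ranged from 14.6 to 18.0 with R1881 (median 15.9, mean 15.9 ± 0.981, SD, n = 10). The enzalutamide libraries held 11.6, 13.4, 11.3, 10.6 and 12.6 CPM from replicate 1 to 5, a mean of 11.9 ± 1.09 (SD, n = 5). Each of them lay below every R1881 library. The log2 fold change was -0.41 (SE 0.0601, limma adjusted p = 5.83e-06), the 2648th lowest of 17046. An antisense RNA, STEAP3-AS1, covers 500 bases of the STEAP3 transcript on the other strand, and the sources used here do not say whether reads were counted by strand. Antisense RNAs also cover 737 bases (7.38%) of the STEAP4 transcript and 915 bases (14.1%) of the merged exons of STEAP1B, though none of its canonical transcript.

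STEAP2, the most abundant member in CPM, moved the other way from the rest, and by little. Its CPM ranged from 1168 to 1347 with R1881 (median 1308, mean 1284 ± 63.3, SD, n = 10). With R1881 + enzalutamide the libraries held 1444, 1284, 1340, 1452 and 1415 CPM from replicate 1 to 5, a mean of 1387 ± 72.5 (SD, n = 5). The groups overlapped: 3 enzalutamide libraries lay above every R1881 library, while replicates 2 and 3 fell within the R1881 range. The log2 fold change of 0.11 (SE 0.0392, limma adjusted p = 0.018) passed the test, but the call was lost against the R1881 libraries numbered 51 to 55 alone (0.09, adjusted p = 0.0575), without enzalutamide replicate 1 (0.10, adjusted p = 0.0573) and without enzalutamide replicate 4 (0.09, adjusted p = 0.0622). With plain library totals in place of the rescaled library sizes it was 0.20 (adjusted p = 3.51e-05).

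STEAP1, the surface antigen without an NADPH-binding domain, fell by 16% of its median. Its CPM ranged from 382 to 437 with R1881 (median 413, mean 413 ± 19.5, SD, n = 10). The enzalutamide libraries held 356, 318, 356, 344 and 347 CPM from replicate 1 to 5, a mean of 344 ± 15.6 (SD, n = 5). No enzalutamide library reached the lowest R1881 library, and replicate 2 was the lowest of all. The log2 fold change was -0.26 (SE 0.0373, limma adjusted p = 3.31e-06), and it shrank to -0.17 with plain library totals (adjusted p = 0.000164).

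STEAP1B, the paralogue of STEAP1, gave nearly the same change. Its CPM ranged from 95.6 to 113 with R1881 (median 106, mean 106 ± 5.34, SD, n = 10). With R1881 + enzalutamide the libraries held 88.1, 82.0, 92.5, 91.3 and 86.1 CPM from replicate 1 to 5, a mean of 88.0 ± 4.20 (SD, n = 5). The groups did not overlap, and replicate 2 was again the lowest. The log2 fold change was -0.26 (SE 0.0406, limma adjusted p = 9.34e-06). Counting all members, the libraries of the treatments did not overlap for 4 of 5, STEAP2 being the exception, and for 37.2% of all genes tested.

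**Figure D1:**
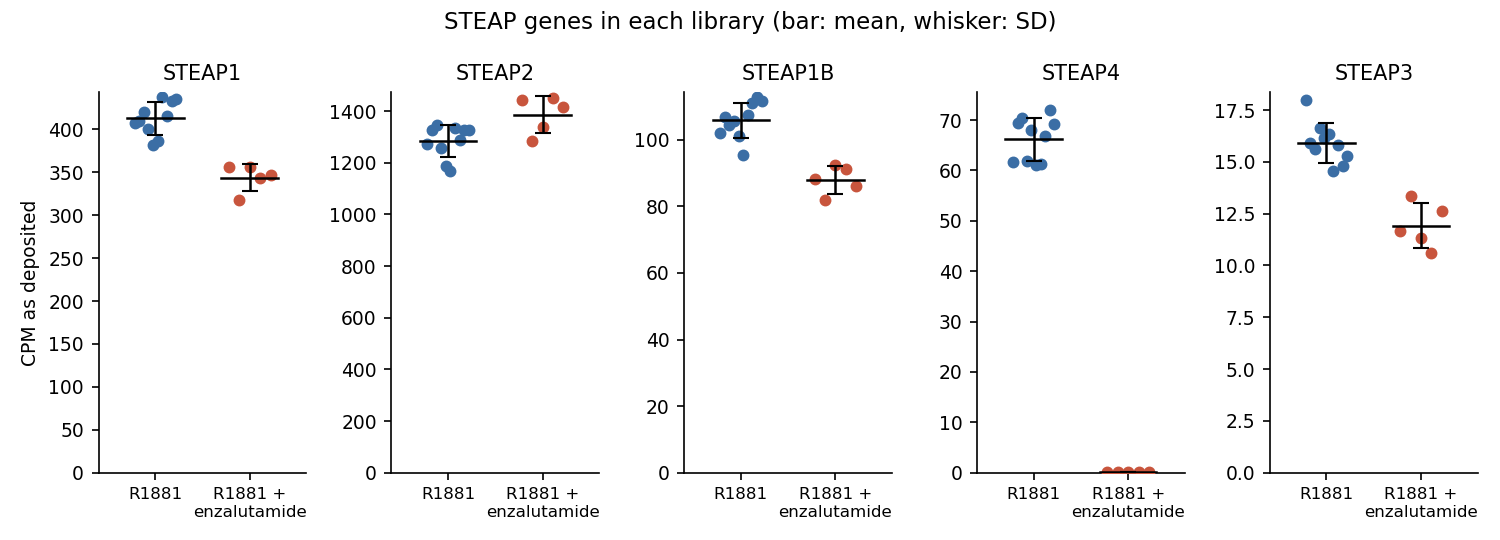
CPM of each STEAP gene (vertical axes, from 0, a scale per gene) in the 10 R1881 libraries (blue points) and the 5 R1881 + enzalutamide libraries (red points), with the mean as a bar and the SD as a whisker. The groups stand apart for STEAP1, STEAP1B, STEAP3 and STEAP4, the last of which lies at 0.0784 to 0.186 CPM with enzalutamide, and they overlap for STEAP2.

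**Figure D2:**
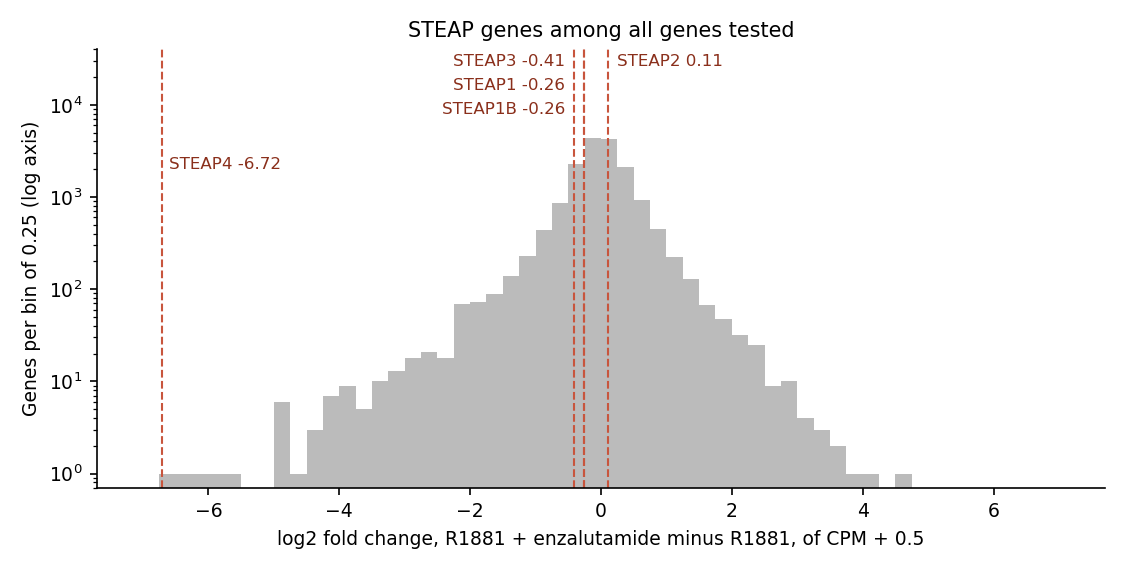
Number of genes (vertical log axis) per bin of 0.25 in log2 fold change of CPM + 0.5 between R1881 + enzalutamide and R1881 (horizontal axis) for the 17046 genes tested, with a dashed line for each STEAP gene. STEAP4 is at the lower end of the distribution at -6.72, while the other STEAP genes lie near its centre, between -0.41 and 0.11.

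STEAP1 and STEAP1B are near-identical in parts, so their values may not be independent measurements. Of the 1170 runs of 50 bases, the read length, in the canonical STEAP1 transcript, 279 (23.8%) occur unchanged in that of STEAP1B. Over the first 4 exons, which have the same lengths in both, they differed at 6 of 75, 3 of 115, 10 of 513 and 1 of 165 bases. The following 200 bases of coding exon 3 in both genes (GRCh38, strand of the gene) are shown because they hold only 3 differing bases, marked in capitals, and an unbroken identical stretch of 149 bases.
STEAP1, chr7:90160935-90161134, plus strand: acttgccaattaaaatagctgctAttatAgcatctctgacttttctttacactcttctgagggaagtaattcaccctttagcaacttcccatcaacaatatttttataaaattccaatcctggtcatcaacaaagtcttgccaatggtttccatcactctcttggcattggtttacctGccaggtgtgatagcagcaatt
STEAP1B, chr7:22493507-22493706, minus strand: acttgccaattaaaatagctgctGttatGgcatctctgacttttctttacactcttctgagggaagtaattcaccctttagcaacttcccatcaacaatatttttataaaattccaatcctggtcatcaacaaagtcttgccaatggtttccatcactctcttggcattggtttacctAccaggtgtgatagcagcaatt

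A read from within such a stretch could have come from either gene, and the sources used here do not say how reads with several positions were counted. The reads on STEAP1B amounted to 24.6% to 26.7% of those on STEAP1 in the R1881 libraries (median 25.8%) and to 24.8% to 26.6% in the enzalutamide libraries (median 25.8%). The ratio was thus steady over all 15 libraries. Other genes with near-identical copies also had values on both: EEF1A1 had a mean of 6912 CPM with R1881 and its processed pseudogenes EEF1A1P5 and EEF1A1P6 5093 and 3766 CPM. The windows before the RefSeq starts of STEAP1 and STEAP1B were alike as well, with 6 differing bases of 250 (97.6% identical). That of STEAP1B lies wholly in exons that GENCODE gives to STEAP1B. The part of shared reads in the STEAP1B values was not tested.

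To compare how far the members responded, the difference in log2(CPM + 0.5) between 2 members was taken within each library and compared between treatments, for all 10 pairs, by an exact permutation test (two-sided, every regrouping of the libraries into 10 and 5), with Benjamini-Hochberg adjustment over the 10 pairs. The neighbours STEAP1 and STEAP2 differed in response: STEAP1 minus STEAP2 was -1.64 ± 0.0318 (SD, n = 10) with R1881 and -2.01 ± 0.0598 (SD, n = 5) with enzalutamide on this scale, a change of -0.37 (exact p = 0.000333, the smallest this design allows, adjusted p = 0.000476). STEAP2 minus STEAP3 changed by 0.52 and STEAP1B minus STEAP2 by -0.38, each with the same p-values. The sequence shared with STEAP1 touches every pair with STEAP1B, so STEAP1B minus STEAP2 may not be independent of STEAP1 minus STEAP2. The 4 pairs with STEAP4 changed by between 6.31 and 6.83, again at the smallest p.

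The remaining pairs did not pass. STEAP1 minus STEAP1B was 1.96 ± 0.0446 (SD, n = 10) with R1881 and 1.96 ± 0.0440 (SD, n = 5) with enzalutamide (exact permutation p = 0.953), a comparison that the shared sequence touches. STEAP1 minus STEAP3 changed by 0.14 (exact permutation p = 0.112, adjusted p = 0.139) and STEAP1B minus STEAP3 by 0.14 (exact permutation p = 0.126, adjusted p = 0.14), so a stronger fall of STEAP3 was not shown with all libraries. Both pairs passed without enzalutamide replicate 2, at 0.21 with adjusted p = 0.0287 and adjusted p = 0.0333 (exact permutation test).

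Per kb of the canonical transcript, the scale on which genes can be set beside each other, the order with R1881 was STEAP1, STEAP2, STEAP1B, STEAP4 and STEAP3. STEAP1 had 338 ± 16.0 CPM per kb (SD, n = 10), STEAP2 184 ± 9.06, STEAP1B 83.9 ± 4.23, STEAP4 6.62 ± 0.429 and STEAP3 3.74 ± 0.230. With enzalutamide STEAP1 had 282 ± 12.8 CPM per kb (SD, n = 5), STEAP2 199 ± 10.4, STEAP1B 69.8 ± 3.33, STEAP3 2.80 ± 0.255 and STEAP4 0.0135 ± 0.00495. STEAP4 was thus above STEAP3 with R1881 and below it with enzalutamide, and no neighbours in either order overlapped in any library. With the merged exons of each gene as the length, chosen after the data were seen, the order with R1881 was unchanged but STEAP1B came out at 16.3 CPM per kb.

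**Figure D3:**
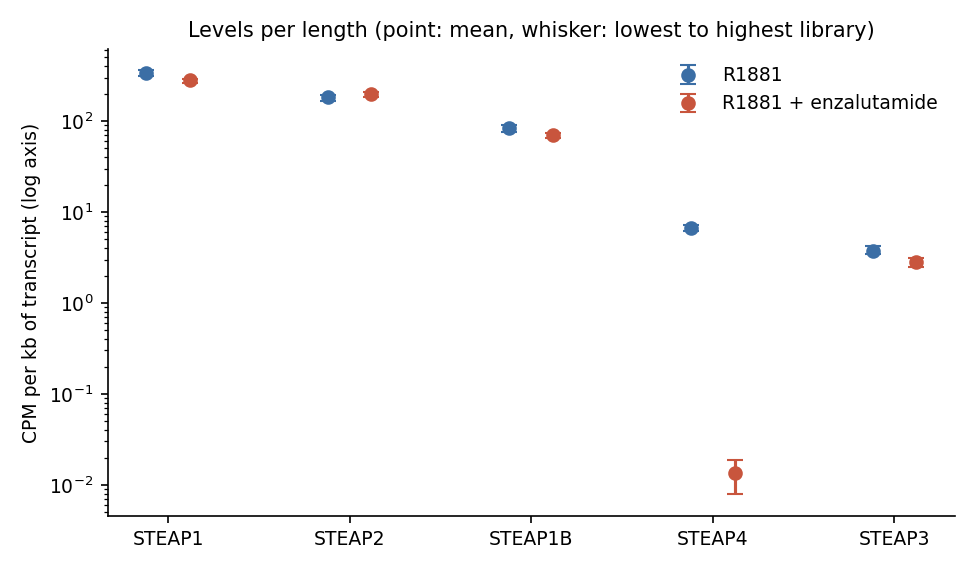
Mean level of each STEAP gene in CPM per kb of its canonical transcript (vertical log axis) with R1881 (blue, 10 libraries) and with R1881 + enzalutamide (red, 5 libraries), where whiskers run from the lowest to the highest library. STEAP4 drops from 6.62 to 0.0135, below STEAP3, and the other members keep their order.

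In shares of all reads on the 5 members, STEAP2 went from a median of 68.1% with R1881 (67.6% to 68.8%) to 76.0% with enzalutamide (74.5% to 76.5%). The share of STEAP1 went from 21.9% to 18.7%, that of STEAP1B from 5.62% to 4.81%, that of STEAP4 from 3.54% to 0.00822% and that of STEAP3 from 0.829% to 0.629%. These are shares of reads and so also reflect transcript length.

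In the labels the R1881 libraries carry the numbers 51 to 55 and 71 to 75, which the sources used here do not explain. No member passed the test between these series: the log2 differences (71 to 75 minus 51 to 55) were -0.07 for STEAP1, -0.06 for STEAP1B, -0.05 for STEAP2, 0.02 for STEAP3 and 0.04 for STEAP4, with limma adjusted p between 0.279 and 0.905. Of all genes tested, 3.17% were called between the series. The enzalutamide libraries are all numbered 81 to 85, so a difference between series of that kind and the treatment cannot be told apart.

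Of 19 other genes with a row within 500 kb of a STEAP gene, 8 were lower with enzalutamide, 6 were higher and 5 did not pass the test. Of all genes tested, 32.7% were lower and 29.8% higher, so these counts are read as a description of the surroundings and not as a result about them. Next to STEAP1 and STEAP2, the claudin gene CLDN12 was lower (log2 fold change -0.48), while CFAP69 (-0.09), GTPBP10 (0.10) and CDK14 (0.09) did not pass. Beside STEAP4, the nearest gene with a row was SRI, which encodes the calcium-binding protein sorcin, and at -0.05 (limma adjusted p = 0.251) it did not pass. ADAM22 at 68 kb was higher (1.00). DBF4, an activator of the replication kinase CDC7, at 361 kb (-0.99) and the mitochondrial carrier gene SLC25A40 at 395 kb (-0.44) were lower, while RUNDC3B at 439 kb (0.09) did not pass.

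Around STEAP3, C2orf76 (-1.36), DBI (-2.32), CFAP221 (-1.42) and TMEM177 (-0.41) were lower and the phosphatase gene PTPN4 was higher (0.53). DBI, the acyl-CoA-binding protein, lies 101 kb from STEAP3. Around STEAP1B, RAPGEF5, an exchange factor for RAP GTPases, was lower (-1.59), while CDCA7L (0.49), KLHL7 (0.24), the mitochondrial import gene TOMM7 (0.16) and the pseudogene EEF1A1P6 within the bounds of STEAP1B (0.28) were higher. The parent gene EEF1A1 was higher by 0.28 as well, and the part of shared reads in the EEF1A1P6 value was not tested.

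**Figure D4:**
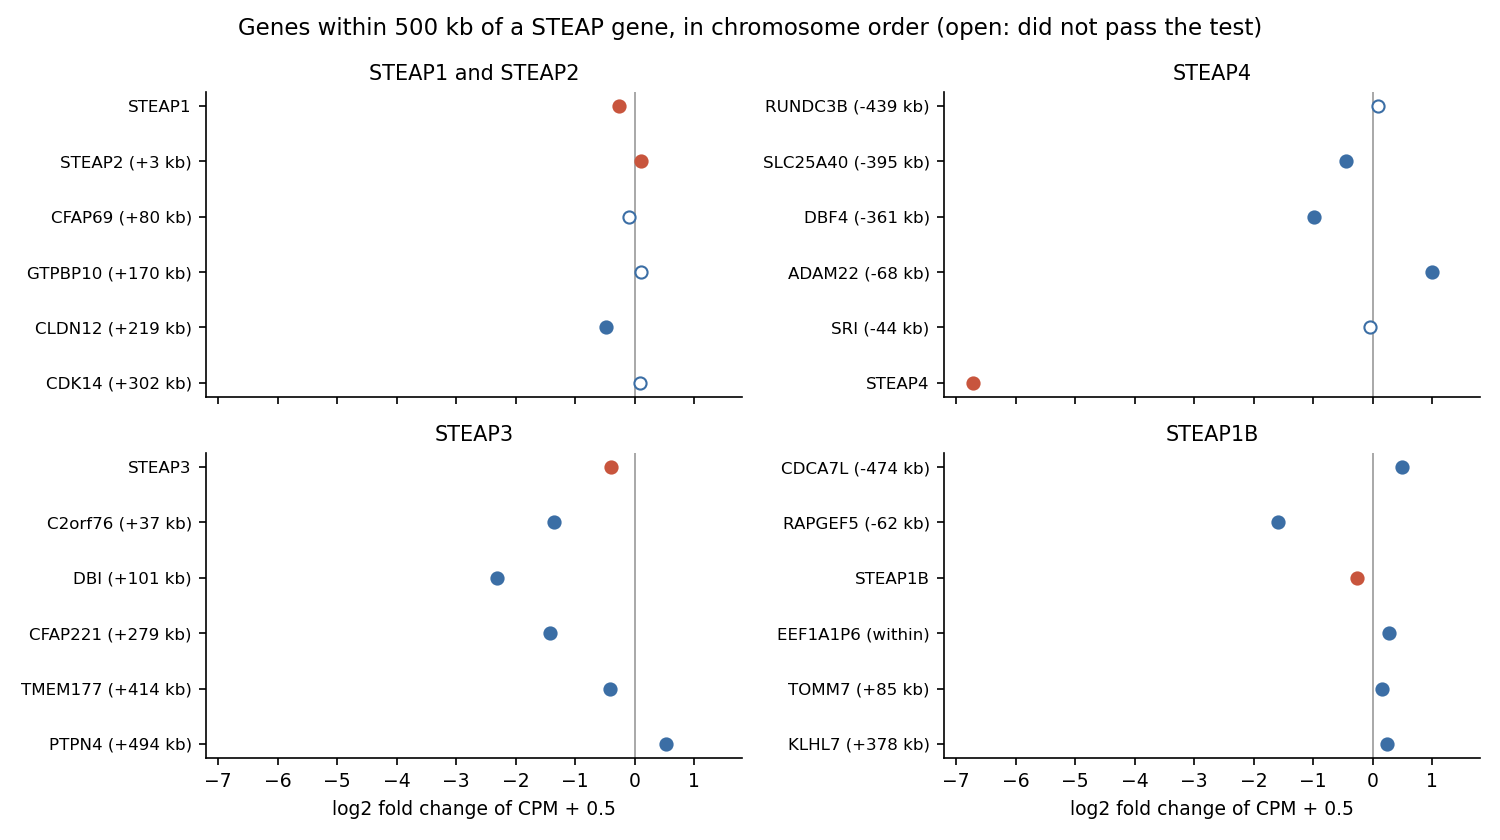
Log2 fold change of CPM + 0.5 between R1881 + enzalutamide and R1881 (horizontal axes) for each STEAP gene (red) and the genes with a row within 500 kb (blue), listed in chromosome order with their distance. Open points did not pass the limma test, and no neighbour of STEAP4 comes near its value of -6.72.

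The response of the family was set beside that of other ferric reductases, of genes for iron, haem, copper and cofactors, and of androgen-induced genes. Over all 17046 genes the median log2 fold change was -0.01, and 52.3% of the calls were lower with enzalutamide, a share of 39.2% with plain library totals. As shares of all genes tested, 32.7% were lower and 29.8% higher. The gene lists below were chosen with earlier results of these data known, so their counts are a description. Of 5 other transmembrane ferric reductases tested, relatives of cytochrome b561, 2 were lower, 2 higher and 1 did not pass, with a median of 0.08. CYB561A3, which is found in late endosomes and lysosomes, rose from 44.4 to 73.0 CPM (0.71), CYB561 of secretory vesicles fell from 216 to 137 CPM (-0.66) and CYB561D2 fell from 25.2 to 19.0 CPM (-0.41). CYBRD1, the duodenal ferric reductase, had no row.

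Of 15 genes of transferrin uptake and iron transport, 6 were lower, 7 higher and 2 did not pass (median 0.08). With plain library totals 5 were lower and 9 higher (median 0.17). NDFIP2, an adaptor of NEDD4 family ubiquitin ligases, fell by 1.54 on the log2 scale, from 195 to 67.0 CPM. HFE, a partner of the transferrin receptor, rose from 3.02 to 8.09 CPM, and the iron exporter gene SLC40A1 rose by 1.15, from 2.43 to 5.93 CPM. The transferrin receptor gene TFRC, whose cargo STEAP3 reduces, was lower by 0.43 (474 to 351 CPM), which is given although it is not among the 3 largest changes of the list.

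Of 15 genes of iron storage and sensing, 5 were lower, 5 higher and 5 did not pass (median 0.03). With plain library totals 3 were lower and 6 higher (median 0.12), and without enzalutamide replicate 2 the median was -0.01. The haem oxygenase HMOX2 fell (-0.54) and HMOX1 rose (0.41), and NCOA4, the receptor that delivers ferritin for degradation, fell (-0.29). Of 12 genes of haem synthesis, 6 were lower, 3 higher and 3 did not pass (median -0.07). FECH, the enzyme that inserts iron into haem, fell from 562 to 256 CPM (-1.13), and the transporter genes ABCB6 (-0.60) and TMEM14C (-0.57) fell as well. The balance of the haem list depended on the setting, with 4 lower, 6 higher and a median of 0.03 with plain library totals, 6 lower and 6 higher with edgeR, and 6 lower and 1 higher against the R1881 libraries numbered 71 to 75 alone.

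Of 14 genes of copper transport, 9 were lower, 2 higher and 3 did not pass (median -0.32). COX17, a copper chaperone of cytochrome c oxidase, fell from 55.0 to 30.9 CPM (-0.82), and the transporter genes SLC31A2 (-0.55) and ATP7B (-0.49) fell too. Of 16 genes that supply NADPH and FAD, the cofactors of the family, 11 were lower, 3 higher and 2 did not pass (median -0.31). NNT, the mitochondrial transhydrogenase, fell from 5.52 to 0.360 CPM (-2.81), IDH1, which makes NADPH in the cytosol, from 1167 to 436 CPM (-1.42) and RFK, the riboflavin kinase, from 86.1 to 58.5 CPM (-0.55). The copper and cofactor counts stand beside 32.7% lower and 29.8% higher over all genes tested. Both lists were chosen with earlier results of these data known.

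All 18 genes of a list of androgen-induced genes were lower with enzalutamide, with a median of -2.74 and no overlap between treatments. The shares over all genes tested were 32.7% lower and 37.2% without overlap in either direction. The list was chosen with earlier results of these data known, so its count is a description and not a test. FKBP5 fell from 1502 to 46.8 CPM (-4.99 on the log2 scale), KLK2 from 463 to 15.2 CPM (-4.87) and HPGD from 28.5 to 0.505 CPM (-4.86). STEAP4 lay below every gene of this list, whereas STEAP1, STEAP1B and STEAP3 lay above all of them, the smallest fall in the list being that of CAMKK2 (-1.65).

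**Figure D5:**
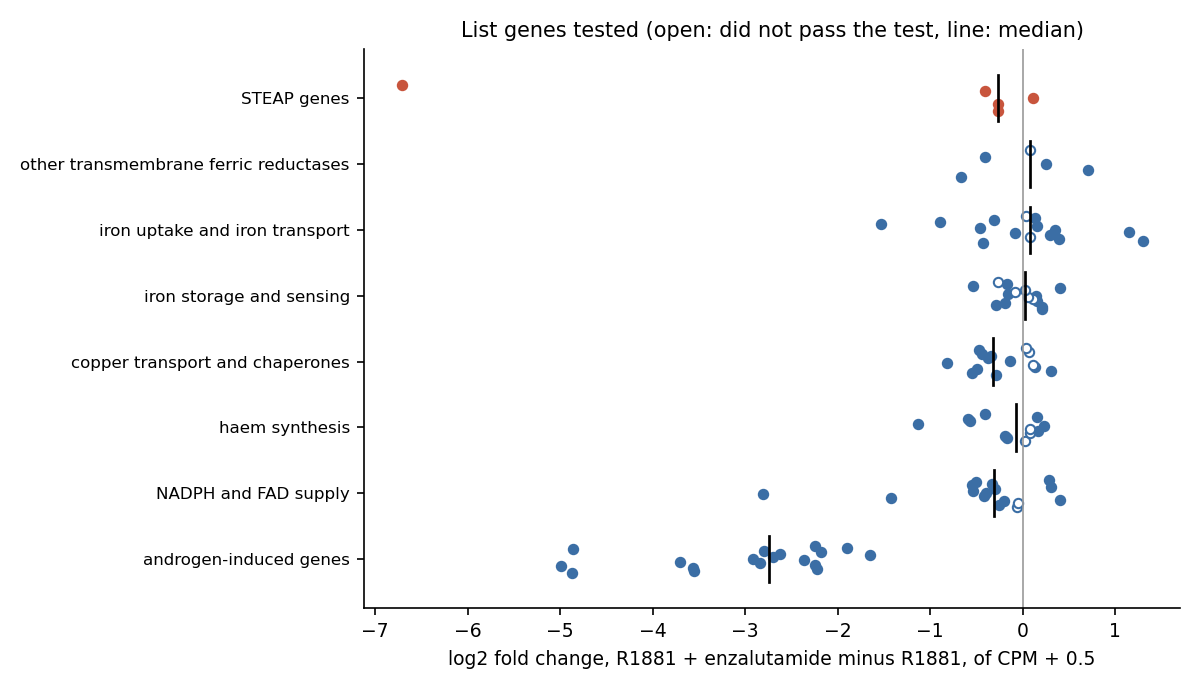
Log2 fold change of CPM + 0.5 between R1881 + enzalutamide and R1881 (horizontal axis) for the 5 STEAP genes (red) and the tested genes of each list (blue), with a black line at the median and open points for genes that did not pass the limma test. STEAP4 at -6.72 lies left of all androgen-induced genes, and the other STEAP genes lie among the iron, copper and cofactor genes.

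The genes whose levels ran most closely with each member were taken by Pearson's r of log2(CPM + 0.5) over the 15 libraries, among 12164 genes whose mean CPM was 5 or more. The points share the 2 treatments, so that r is set mainly by the difference between them, and it is given as a description. SORD (0.9996), its pseudogene SORD2P and the magnesium transporter gene SLC41A1 were closest to STEAP4. SORD and SORD2P had log2 fold changes of -2.24 and -2.22, and the part of shared reads in these values was not tested. HIGD1A (0.988), RBBP7 and HACD3 were closest to STEAP1, and GYG1 (0.975), HIBCH and GLRX3 to STEAP1B. EIF2S3 (0.979), BPTF and ZMYM4 were closest to STEAP2, and GYS1 (0.966), CUL7 and CCNF to STEAP3. STEAP1B was the 313th gene for STEAP1, and STEAP1 the 67th for STEAP1B (r = 0.957 for both).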

How the data were processed

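Polyadenylated RNA of LNCaP cells was sequenced as single-end reads of 50 bases from a stranded kit. Alignment to GRCh38 with STAR and counting with featureCounts were done by the authors. For versions, annotation, strand setting, gene filter and scaling: not given in the sources used here. Values in the deposited signal are CPM with rescaled library sizes (columns sum to 985580 to 1078567), 100% of values being whole reads, and 0 columns lacked a sample. Same-treatment libraries all differed by more than sampling noise (chi-square per gene at least 1.63 in 55 pairs).

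Main test: limma 3.58.1 (trend, treatment only, R 4.3.3). edgeR 4.0.16 and DESeq2 1.42.0 on recovered reads, pseudocounts, filters, scalings, a replicate block, each R1881 series and left-out libraries were alternatives. The fit was tested on simulated reads. Members and lists were chosen with earlier results of these data known. Named are, beside the members, the 3 list genes with the largest called change, genes within 500 kb and the 3 likest genes. Depth limits genes with few reads, and intervals cover counting error only. Sequences are from RefSeq (GRCh38.p14) and GENCODE v44.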

Additional observations from a re-analysis of the deposited data

How the results depend on the processing

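STEAP1, STEAP1B, STEAP3 and STEAP4 kept their direction and an adjusted p under 0.05 in each alternative run, edgeR and DESeq2 included, with log2 fold changes of -0.30 to -0.17, -0.29 to -0.17, -0.45 to -0.32 and -8.94 to -5.89. STEAP2 kept its direction (0.09 to 0.20). It no longer passed against the R1881 libraries numbered 51 to 55 alone (0.0875, adjusted p = 0.0575), and with single libraries left out it ranged from 0.0945 to 0.139. A replicate block left it at 0.12 (adjusted p = 0.0525) and changed no other call of a member. The numbers are not shown to pair the libraries, since same-numbered libraries correlated at between -0.07 and 0.07 in their deviations, and none was closest to its own number. The block gave 10043 calls against 10660. STEAP1 minus STEAP1B had no stable sign: -0.0054 against the libraries numbered 51 to 55 alone, and -0.0104 to 0.0150 with single libraries left out. STEAP1 minus STEAP3 ranged from 0.104 to 0.212 and STEAP1B minus STEAP3 from 0.0888 to 0.207 in the same way. Between the R1881 series, 541 genes were called, 982 with DESeq2 and 55 to 964 with single libraries left out, and the STEAP3 difference ranged from -0.0137 to 0.0607. The cause was not tested. The total number of calls in each gene list stayed within 1.5 times under each alternative, but the split by direction shifted in several lists. All 18 androgen-induced genes were lower under each alternative. Haem synthesis had 1 to 6 higher calls against 3. Copper transport had 1 higher call against 2 in 4 alternatives, and 3 against the R1881 libraries numbered 51 to 55 alone. With plain library totals, lower calls were 7 against 9 for copper transport and 3 against 5 for iron storage. In the same setting, iron transport had 5 lower and 9 higher calls against 6 and 7. With enzalutamide, the STEAP4 value is limited by 2 to 4 reads per library.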
